A study of Mus musculus with 3 samples.

Results

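The genes described here are 10 transcription factors of the B lineage, namely Spib, Spi1, Pou2af1, Pou2f2, Ebf1, Pax5, Ikzf3, Bach2, Ets1 and Irf8, in spleens that carried islet grafts. They were chosen by name, and all their probes on the array were taken. The 10 genes had 14 of the 55679 probes and are 10 of 34796 gene names on the array. The array listed 9 of them under these names, and Spi1 was found through its RefSeq accession, under the older name Sfpi1.

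RNA of whole spleen was measured on 3 one-color arrays, with 1 array per time point. The recipients were male C57BL/6J mice made diabetic with streptozotocin, and each received 25 syngeneic islets into the spleen and 100 under the capsule of a kidney. Sample 1 was taken directly after transplantation (day 0), Sample 2 on day 2, and Sample 3 on day 139, following nephrectomy on day 100 to remove the capsular graft. The paper and the treatment protocol give both grafts for every sample, whereas the sample characteristics name the capsular graft for day 139 alone. The number of mice behind an array is not given in the sources used here. The paper states an age range for its mice in general, not the age of those behind each array. The day 139 spleen therefore differed from the others at least in time since grafting and streptozotocin and in the nephrectomy, which cannot be told apart. Age and blood glucose could differ between the arrays as well, and blood glucose at harvest is not given for these mice. With 1 array per group there is no replicate, and differences are described for these arrays without a test.

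B cells are made in the bone marrow and mature in the spleen, and each stage is set by a small group of transcription factors. Ebf1 and Pax5 establish and hold B cell identity, Ikzf3 acts in mature B cells, Bach2 restrains the step to plasma cells, and Pou2f2 binds the octamer motif of immunoglobulin genes together with its coactivator Pou2af1. Spib and Spi1 are closely related ETS factors that bind the same purine-rich sites, Ets1 is a more distant relative, and Irf8 joins Spib or Spi1 on composite ETS-IRF sites. Several of these genes are also active outside B cells. Spi1 and Irf8 act in myeloid cells, Spib and Irf8 in plasmacytoid dendritic cells, and Ets1 and Ikzf3 in T cells. In RNA of a whole organ, fewer cells of a type and less RNA per cell cannot be told apart.

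The array reads each transcript through probes of 60 bases. The 7 probes below are from the genes with several probes (Pou2f2, Pax5, Bach2 and Ets1) or from Spi1. Spi1 is included because its log2 ratio over day 0 differed most from that of Spib. Probe 1 of Bach2 and probe 2 of Ets1 are not shown. The sequences are given 5′ to 3′, as in the array file, and in lower case throughout because no base is singled out.
Spi1, probe 1: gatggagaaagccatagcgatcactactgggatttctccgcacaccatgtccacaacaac
Pou2f2, probe 1: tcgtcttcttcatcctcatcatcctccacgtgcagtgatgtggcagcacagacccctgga
Pou2f2, probe 2: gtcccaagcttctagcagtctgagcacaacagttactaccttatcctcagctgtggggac
Pax5, probe 1: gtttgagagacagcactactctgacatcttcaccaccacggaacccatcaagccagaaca
Pax5, probe 2: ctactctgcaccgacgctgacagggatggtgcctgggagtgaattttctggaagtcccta
Bach2, probe 2: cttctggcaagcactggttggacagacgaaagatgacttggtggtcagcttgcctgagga
Ets1, probe 1: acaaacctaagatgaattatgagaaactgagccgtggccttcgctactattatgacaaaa

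Positions of probes are given on mm9, as annotated in the array files. The Spi1 probe spans 13788 bases of chromosome 2 (90939665 to 90953452, plus strand), so it crosses at least 1 intron and reads spliced RNA. Probe 2 of Pou2f2 (chromosome 7, 25878678 to 25879840, minus strand) and probe 2 of Pax5 (chromosome 4, 44550354 to 44582908, minus strand) also cross an intron, over spans of 1163 and 32555 bases. The other 11 probes lie on an unbroken stretch of genome. The single Spib probe (chromosome 7, 51781392 to 51781451, minus strand) has a stop codon in each of the 3 reading frames and holds the polyadenylation signal AATAAA.

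The promoters of the factors are shown for Spib and for the members with a composite ETS-IRF match, because Spib, Spi1 and Irf8 bind such sites. The windows hold the 250 bases before the transcription start in RefSeq (GRCm38.p6), written 5′ to 3′ on the strand of the gene, with motif matches in capitals.
Bach2, chr4:32417185-32417434, plus strand: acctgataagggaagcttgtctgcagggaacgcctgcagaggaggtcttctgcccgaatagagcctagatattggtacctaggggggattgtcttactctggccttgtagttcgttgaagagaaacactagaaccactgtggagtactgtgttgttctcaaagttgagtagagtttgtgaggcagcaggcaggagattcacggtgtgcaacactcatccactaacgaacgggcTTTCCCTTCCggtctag
Pou2f2, chr7:25132461-25132710, minus strand: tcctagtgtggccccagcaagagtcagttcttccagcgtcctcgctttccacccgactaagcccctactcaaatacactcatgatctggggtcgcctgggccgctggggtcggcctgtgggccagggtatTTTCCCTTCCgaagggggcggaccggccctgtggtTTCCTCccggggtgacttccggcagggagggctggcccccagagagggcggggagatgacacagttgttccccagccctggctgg
Spib, chr7:44532072-44532321, minus strand: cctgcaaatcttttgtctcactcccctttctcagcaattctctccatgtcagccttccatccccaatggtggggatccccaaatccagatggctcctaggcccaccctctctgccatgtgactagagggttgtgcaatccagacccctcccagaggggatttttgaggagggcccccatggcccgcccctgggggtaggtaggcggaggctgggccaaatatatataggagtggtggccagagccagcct

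Of the members, 7 had 9 such windows, and 5 motifs were searched on both strands. The composite ETS-IRF motif stood in 2.30% of all 32851 windows and in 2 of the 9, once in Bach2 at bases 17 to 8 before the start and once in Pou2f2 at bases 120 to 111, each as TTTCCCTTCC on the opposite strand. The PU box GAGGAA (23.3% of all windows) was found in Pou2f2 and in 1 window of Ebf1, and the Ikaros core TGGGAA (21.6%) in 1 window of Ebf1 and 1 of Irf8. The octamer ATGCAAAT (1.60%) and the palindromic EBF motif (0.779%) were in none of the 9. The window of Spib held none of the motifs.

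The 13 member probes other than probe 2 of Pax5 were well above background on every array, and no spot was saturated. Signals are intensities after quantile normalization, which gives each array the same distribution. A ratio is the signal of the later day over that of the earlier day, and the ratio limits of the study, at least 1.5 or at most 0.66, were used for counts. The scanner software's error for a spot came to about 10% of its signal, or 0.20 on a log2 ratio at the median of the members. This error covers the spot within an array and neither the labeling nor the mice, so that the number of arrays limits the precision. The day 139 comparisons over day 0 and over day 2 share the day 139 array.

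Spib, an ETS factor of B cells and plasmacytoid dendritic cells, had its highest signal on day 139, with 4032 on day 0, 3619 on day 2 and 8280 on day 139. The early arrays were close to each other and the late one stood apart. The log2 ratio was -0.16 for day 2 over day 0, 1.04 for day 139 over day 0 and 1.19 for day 139 over day 2, each with a scanner error of 0.20. Among all probes well above background on at least 1 array, 94.2% had a lower log2 ratio than Spib over day 0 and 95.5% over day 2.

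Spi1, the ETS factor nearest to Spib and a main regulator of myeloid cells, had no such pattern. Its signals were 126 on day 0, 97.6 on day 2 and 100.3 on day 139. Day 0 was the highest array, and the other two were nearly level. The log2 ratio over day 0 was -0.33 on day 139 with quantile normalization and 0.05 when the arrays were scaled to their spike-in controls, so its direction depends on the scaling. With quantile normalization, the log2 ratio of Spib exceeded that of Spi1 by 1.37 ± 0.30 (scanner error) over day 0 and by 1.15 ± 0.30 over day 2. With spike-in scaling, Spib was at 1.41 and Spi1 at 0.05 over day 0, and they were at 1.58 and 0.48 over day 2.

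Pou2af1, the B cell coactivator of octamer-binding factors, gave signals of 4649, 4600.0 and 8939 on days 0, 2 and 139. Its early arrays differed by a log2 ratio of only -0.02, and day 139 was higher by 0.94 over day 0 and 0.96 over day 2. Its log2 ratio over day 0 lay within the scanner error of that of Spib, at a difference of 0.09 ± 0.29. Pou2f2, the octamer-binding partner, gave 949, 866 and 1455 on probe 1, with log2 ratios of day 139 of 0.62 over day 0 and 0.75 over day 2. Probe 2 of Pou2f2 gave 291, 229.7 and 462, and its log2 ratios of 0.66 and 1.01 had the same direction. Both probes of Pou2f2 were thus highest on day 139, and their log2 ratios over day 0 differed by -0.05 ± 0.29.

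Ebf1, which opens the B cell program, had signals of 476 on day 0, 409 on day 2 and 839.8 on day 139. Day 139 was the high array, with log2 ratios of 0.82 over day 0 and 1.04 over day 2. Pax5, which holds B cell identity, was measured by probe 1 at 66.7, 76.4 and 99.9. Its signal was ordered by day, and its log2 ratio of 0.58 for day 139 over day 0 fell just short of the ratio limit. It was 0.36 with normexp background correction and 0.95 with spike-in scaling, which is past the limit. Probe 2 of Pax5 was not well above background on any array, at 11.7, 6.81 and 15.4, and no ratio is given for it.

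Bach2, a repressor that delays plasma cell differentiation, had the highest log2 ratios of the members in both day 139 comparisons with quantile normalization. With normexp background correction Spib was above it, at 1.19 against 1.07 over day 0 and 1.29 against 1.26 over day 2. Probe 1 (chromosome 4, 32673009 to 32673068) gave 469 on day 0, 406 on day 2 and 1073 on day 139, with log2 ratios of day 139 of 1.19 over day 0 and 1.40 over day 2. Probe 2 (chromosome 4, 32588782 to 32588841) gave 44.3, 41.1 and 133, with log2 ratios of 1.59 and 1.69. Both probes were nearly level between the early arrays and higher on day 139. Their log2 ratios over day 0 differed by -0.39 ± 0.31 (scanner error).

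Ikzf3, the Ikaros-family factor Aiolos, stood apart from these genes. Its signals of 86.0, 107.1 and 95.4 differed little, with day 2 highest, and its log2 ratio was 0.15 for day 139 over day 0 and -0.17 for day 139 over day 2, the latter turning to 0.26 with spike-in scaling. Ets1, an ETS factor of T and B cells, gave 1653, 1956 and 2053 on probe 1 and 1512, 1296 and 2041 on probe 2. Day 139 was highest on both probes, yet probe 1 placed day 2 near day 139 and probe 2 placed it below day 0. The log2 ratio of day 139 over day 2 was 0.07 on probe 1 and 0.65 on probe 2, a difference of -0.58 ± 0.29 between probes, so the Ets1 value depends on the probe.

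Irf8, the interferon regulatory factor that pairs with Spib or Spi1, gave 9936 on day 0, 9043 on day 2 and 15366 on day 139. The early arrays were within the scanner error of each other, and the log2 ratio of day 139 was 0.63 over day 0 and 0.76 over day 2.

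**Figure D1:**
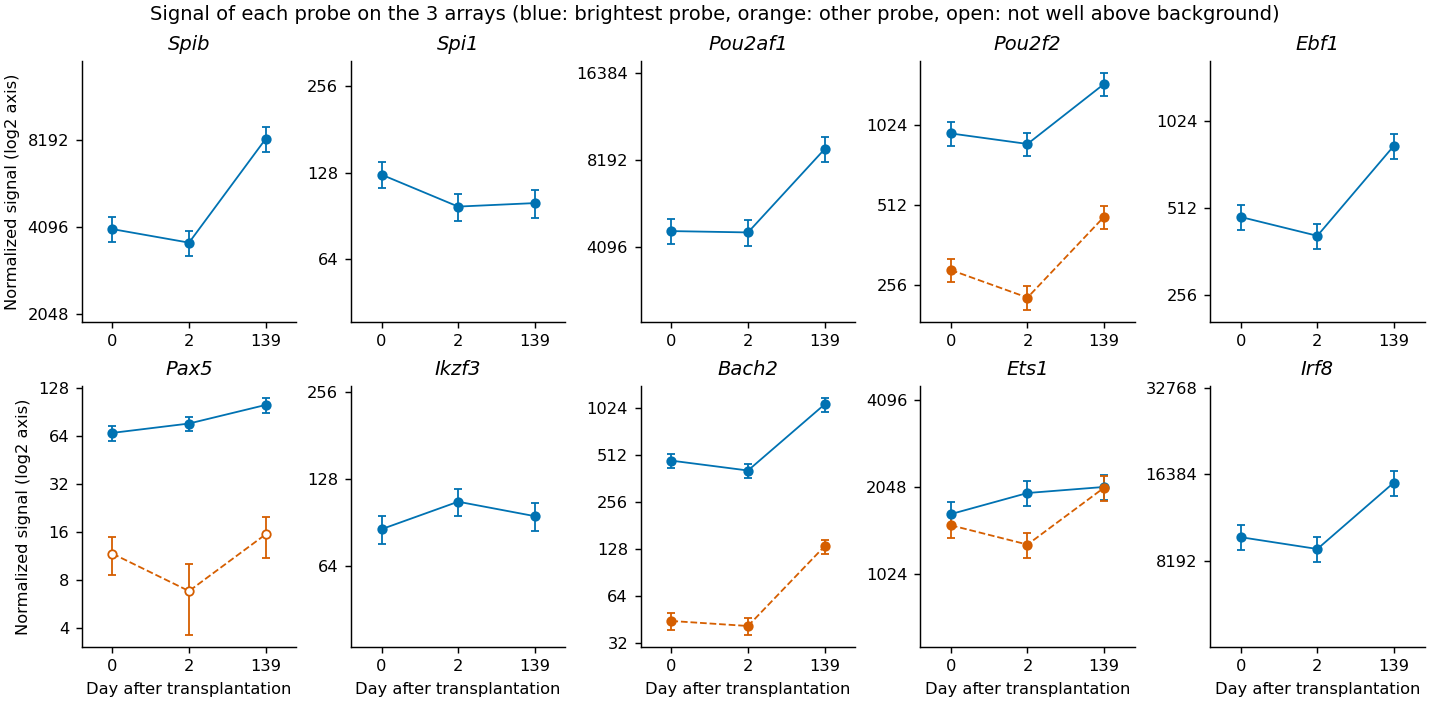
Normalized signal (log axis) of each member probe on the day 0, day 2 and day 139 arrays, 1 array per day, with bars for the scanner software's spot error; days are evenly spaced and each panel has its own range. Spib, Pou2af1, Pou2f2, Ebf1, Bach2 and Irf8 are highest on day 139, whereas with quantile normalization Spi1 is highest on day 0 and Ikzf3 on day 2, and with spike-in scaling both are highest on day 139.

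Each gene is counted by its brightest probe. For day 2 over day 0, 0 of the 10 members passed a ratio limit in either direction, against 10.1% of all 32108 probes well above background on at least 1 array that were higher and 10.4% that were lower. For day 139 over day 0, 6 members (Spib, Pou2af1, Pou2f2, Ebf1, Bach2 and Irf8) were higher and 0 lower, against 12.8% and 14.7% of all probes. For day 139 over day 2, 6 members were higher and 0 lower, against 12.4% and 14.4%. With spike-in scaling, 8 members were higher over day 0 and 7 over day 2, against 30.8% and 34.2% of all probes, while 0 were lower against 7.51% and 5.94%. Spi1 and Ikzf3 passed in neither comparison under either scaling, whereas Pax5 passed in both and Ets1 over day 0 with spike-in scaling alone.

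The median log2 ratio of the members was -0.13 for day 2 over day 0, 0.62 for day 139 over day 0 and 0.76 for day 139 over day 2, where all detected probes had medians of 0.01, -0.02 and -0.04. With quantile normalization, day 139 was the highest array for 8 of the 10 members, against 33.3% of all detected probes. Day 2 was the lowest array for 7 members, against 29.8%. Spi1 and Ikzf3 were also highest on day 139 with spike-in scaling, but the share of all probes highest there under that scaling is not given. That scaling moved the median log2 ratio of all probes to 0.36 over day 0 and 0.40 over day 2. When a Z-score of at least 2 against probes of like signal was required in addition, 0 members passed for day 2 over day 0, against 1.91% of all probes higher and 2.55% lower. Bach2 alone passed over day 0, against 2.52% of all probes higher and 2.21% lower. Spib and Bach2 passed over day 2, against 2.39% and 1.77%. The Z-score of Spib was 1.84 over day 0 and 2.06 over day 2, close to the limit on either side.

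**Figure D2:**
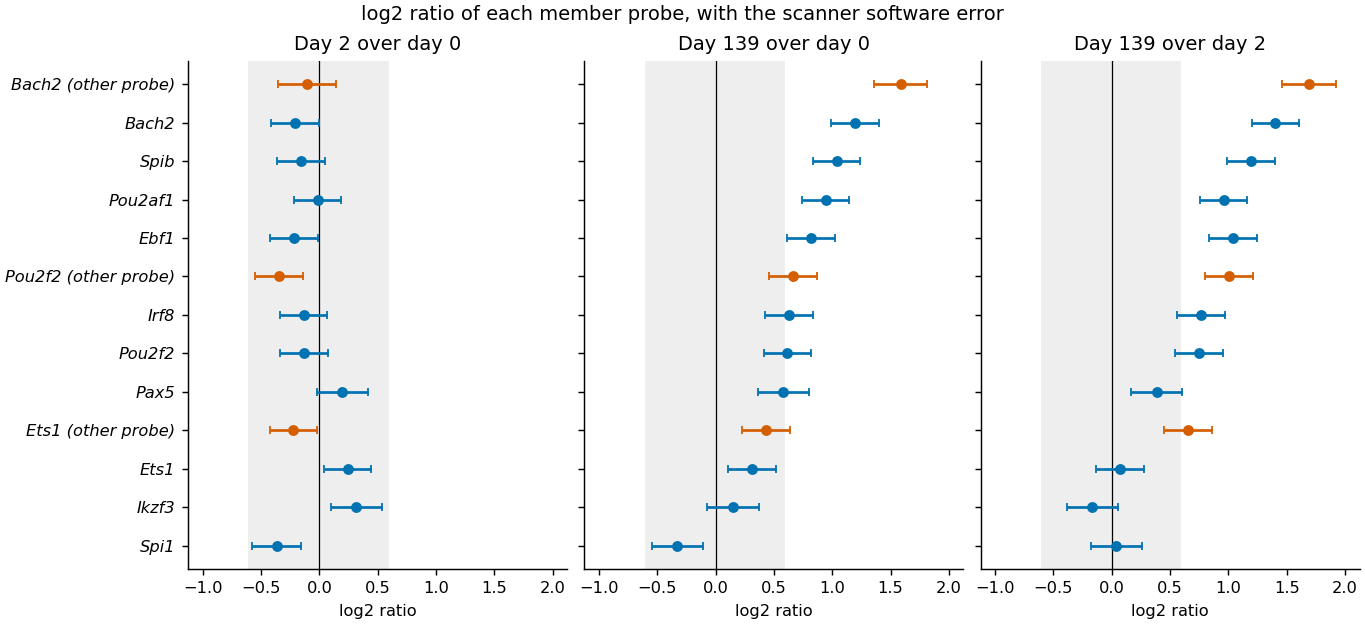
Log2 ratios of the 13 member probes well above background for the 3 comparisons, with bars for the scanner error and a grey band between the ratio limits of 0.66 and 1.5; blue marks a gene's brightest probe and orange its other probe. No member gene passes a limit between the early days by its brightest probe, and Bach2 and Spib lie farthest to the right in both day 139 comparisons.

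**Figure D3:**
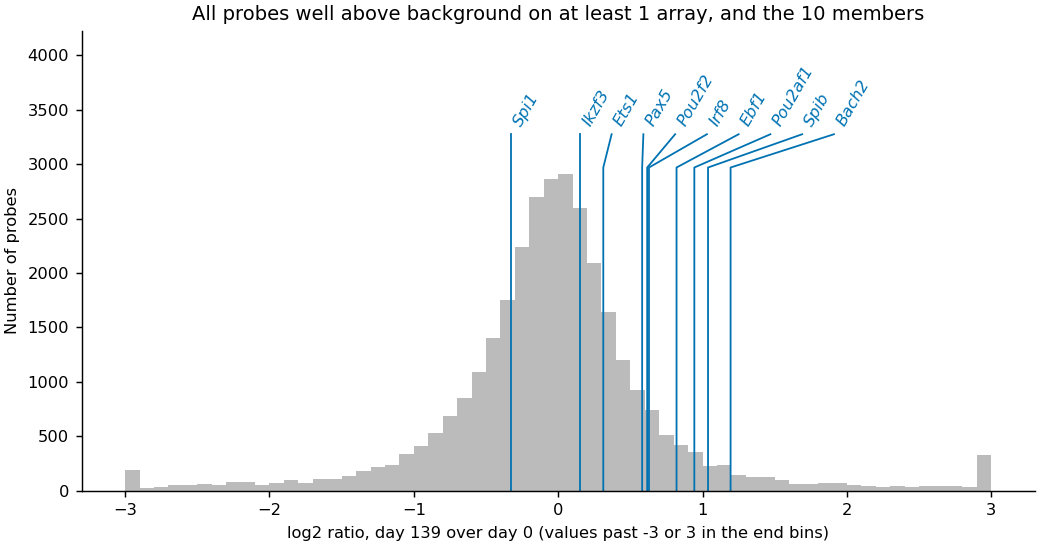
Number of probes (vertical axis) by log2 ratio of day 139 over day 0, over all 32108 probes well above background on at least 1 array, with a line for the brightest probe of each member. The median of all probes is -0.02, Spib lies above 94.2% of them, and Spi1 is the only member to the left of 0 with quantile normalization, at 0.05 with spike-in scaling.

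The profile of Spib over the 3 arrays was compared with those of 26886 other probes well above background on every array, by the Euclidean distance between log2 signals centred on their mean. With 3 arrays that all values share, this likeness is a description only. Probes that kept the array's own name were skipped in naming the nearest, but count in the percentages below. The nearest of the rest were Slamf6, a lymphocyte surface receptor (263, 232 and 524 on days 0, 2 and 139), Gpr18, a G protein-coupled receptor (170, 156 and 346), Izumo4 (270, 251 and 572), S1pr3, a sphingosine 1-phosphate receptor (342, 318 and 700.05), and Tmem243 (202, 189 and 417). Each had early arrays within 0.18 of each other on the log2 scale and a higher day 139. Among the members, Bach2, Ebf1 and Pou2af1 were nearest to Spib, with 0.368%, 0.42% and 0.472% of the probes nearer, whereas 50.5% were nearer than Ikzf3 and 58.7% nearer than Spi1.

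Of 26 other regulators of B cells and plasma cells, 25 were measured, and 9 were higher on day 139 over day 0 while 0 were lower (36% and 0%, against 12.8% and 14.7% of all probes). Their median log2 ratio was 0.29 over day 0 and 0.44 over day 2, both below those of the members. Mef2b, a factor of germinal center B cells, gave 79.4, 78.4 and 626 on days 0, 2 and 139, the largest log2 ratio of the list at 2.98. Irf4, which drives plasma cell differentiation, gave 475, 436 and 1139. Foxp1, a factor of B cell development and maturation, gave 4132, 5000 and 7749 on its brightest probe. Its 4 detected probes had log2 ratios over day 0 from 0.16 to 0.91, so its value depends on the probe. Bcl6, the germinal center repressor, gave 2419, 1834 and 3910. Mef2c, Foxo1, Prdm1, Klf2 and Zfp318 also passed the limit, with log2 ratios from 0.63 for Zfp318 to 0.76 for Mef2c. The lowest of several probes fell short of the limit for Foxo1, at 0.52, and for Zfp318, at 0.43. Prdm1 (0.75), the plasma cell regulator that Bach2 and Bcl6 repress, was thus among the genes higher on day 139. The lowest of the list was Id2, an inhibitor of E proteins, at -0.57 over day 0, which is not past the limit.

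Of 14 other ETS family genes measured, 1 was higher and 3 were lower on day 139 over day 0, against 12.8% and 14.7% of all probes, and the median log2 ratio was -0.09, or 0.32 with spike-in scaling. For day 2 over day 0, 0 were higher and 4 lower, against 10.1% and 10.4%, at a median of -0.24. For day 139 over day 2, 3 were higher and 2 lower, against 12.4% and 14.4%, at a median of 0.04. Fli1, an ETS factor of lymphocytes and megakaryocytes, gave 999, 1168 and 1556, the highest log2 ratio of the list (0.64). Elf4 gave 76.7, 33.4 and 33.6, and Ets2 gave 1801, 1054 and 1037, so that for both the lower level was already present on day 2. Erg gave 106, 105 and 68.1. Spic, the relative of Spib and Spi1 that is needed for red pulp macrophages, gave 13171, 4011 and 9906, with the lowest signal on day 2 and log2 ratios of -1.72 for day 2 over day 0 and 1.30 for day 139 over day 2. The Spi1 subfamily genes thus had different arrays as their highest with quantile normalization, day 139 for Spib and day 0 for Spi1 and Spic, though Spi1 was highest on day 139 with spike-in scaling.

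Genes known as targets of the members were described in the same way. Of 14 measured, 9 were higher over day 0, against 12.8% of all probes, and 10 over day 2, against 12.4%. In either comparison 0 were lower, against 14.7% and 14.4% of all probes, and the medians were 0.85 and 0.98. Several are themselves B cell genes, and the part of the members in their values was not tested. Blk, a B cell Src-family kinase, gave 79.6, 93.7 and 306 on days 0, 2 and 139, with a log2 ratio of 1.94 over day 0. The B cell receptor chains Cd79a and Cd79b gave 4835, 7099 and 12454, and 18080, 18240 and 40170, with log2 ratios of 1.37 and 1.15. Cd72, a B cell coreceptor, and Blnk, the B cell linker protein, had log2 ratios of 1.21 and 1.05. Cxcr5, the follicle homing receptor, gave 1353, 1214.5 and 2908, a ratio of 2.15 over day 0. Tnfrsf13c, the BAFF receptor, Ms4a1, which encodes CD20, and Grap2, an adaptor protein, followed at 0.89, 0.81 and 0.72. The lowest was Fcgr2b, the inhibitory Fc receptor, at 893, 805 and 767.

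**Figure D4:**
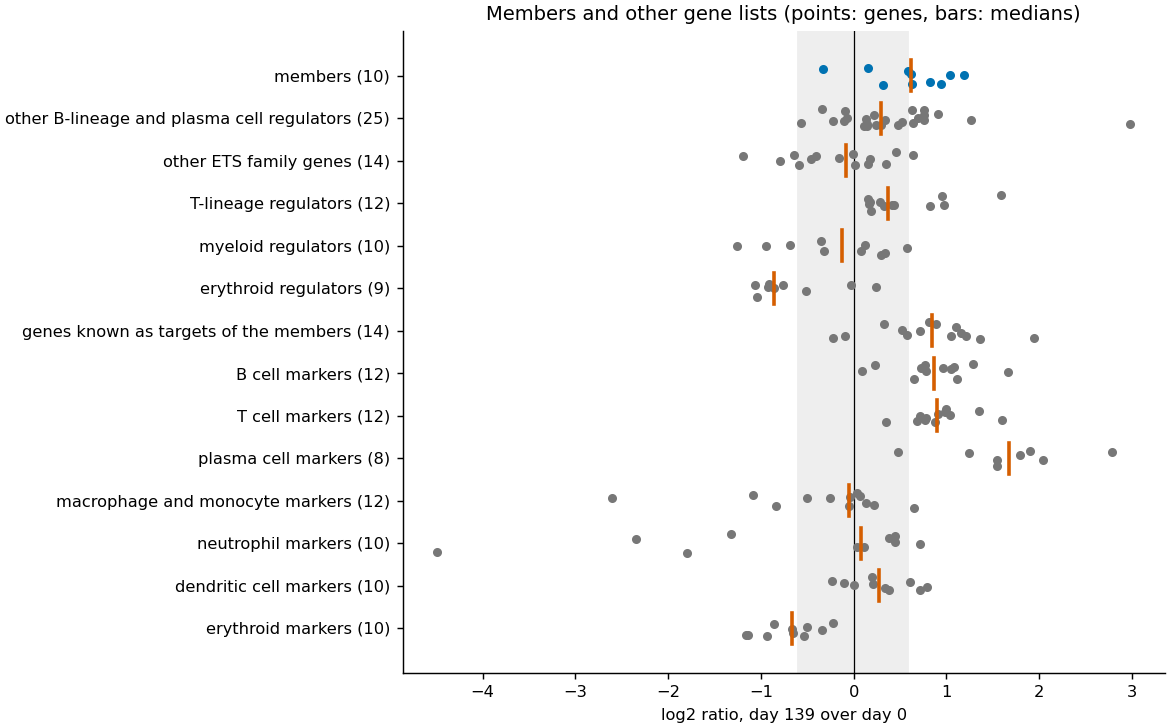
Log2 ratio of day 139 over day 0 for each measured gene (points), with the median (bar) of the members and of each other list, and a grey band between the ratio limits. The members' median of 0.62 lies below the B cell markers' 0.87, and the plasma cell markers have the highest median of the lists shown, at 1.67.

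Markers of B cells, T cells and plasma cells were also higher on day 139. The counts stand beside 12.8% of all probes higher and 14.7% lower over day 0, and 12.4% and 14.4% over day 2. Of 12 B cell markers, 10 were higher on day 139 over day 0 and 10 over day 2, with 0 lower, and their summed signal was 45175, 43100 and 69397 on days 0, 2 and 139, while that of the members was 22443, 21180 and 38300.2. Of 12 T cell markers, 11 were higher over day 0 and 4 over day 2, with a summed signal of 20606, 27020 and 39877. Of 8 plasma cell markers, 7 were higher in each comparison, with a summed signal of 34317, 27782 and 87040. Most of that sum was Jchain, at 29396, 21253 and 69806. The sum was lower on day 2 than on day 0, yet 5 of the 8 markers were higher on day 2, at a median log2 ratio of 0.41. The 7 markers higher on day 139 include Fkbp11 (10.1, 6.11 and 29.2), which was well above background on day 139 alone. It entered the list only through that array, so its count as higher is no evidence. Every B and T cell marker was well above background on each array. The lowest signal on any array was 80.9 for a B cell marker and 32.3 for a T cell marker. The part of these cell types in the members' values was not tested.

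Relative to the median of the B cell markers over day 0, the log2 ratio was higher by 0.32 for Bach2, 0.17 for Spib and 0.07 for Pou2af1. The value was -0.05 for Ebf1, -0.24 for Irf8, -0.25 for Pou2f2 and -0.29 for Pax5. The lowest values were those of Ets1 (-0.56), Ikzf3 (-0.72) and Spi1 (-1.20). The markers themselves ran from a log2 ratio of 0.09 for Ly86 to 1.67 for Fcer2a, a range that held Ets1 and Ikzf3 but not Spi1. Members thus differed from the marker median in both directions with quantile normalization, which is not a scaling by 1 factor per array. Spike-in scaling, which is such a scaling, gave a slightly smaller difference for Spib, at 1.41 against a marker median of 1.27. With normexp background correction Spib (1.19) stood above Bach2 (1.07), at a marker median of 0.84.

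The markers of other spleen cells had lower medians. Their counts over day 0 are read beside 12.8% of all probes higher and 14.7% lower. Of 10 dendritic cell markers, 3 were higher and 0 lower over day 0, at a median of 0.27. Among its markers of plasmacytoid cells, the log2 ratio over day 0 was -0.23 for Siglech, 0.19 for Ccr9, 0.38 for Bst2 and 0.71 for Pacsin1, so they had no common direction under quantile normalization. Of 12 macrophage and monocyte markers, 1 was higher and 3 were lower, and their summed signal was 125310, 113155 and 106957. This list ran from Cd14 at a log2 ratio of -2.61 to Adgre1 at 0.65. Hmox1 alone went from 35150 to 16617 between days 0 and 139, a larger difference than that of the sum. By their brightest probe, 5 of the 12 markers had a higher signal on day 139 than on day 0. The median log2 ratio of the list was -0.05 over day 0. It was -0.36 with the median over a gene's probes and 0.37 with spike-in scaling, so it depends on the processing. The part of macrophages in the value of Spi1, whose own direction turns with spike-in scaling, was not tested. Of 10 erythroid markers, 0 were higher and 6 lower over day 0. Their median log2 ratio was -0.66 with quantile normalization and -0.26 with spike-in scaling.

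**Figure D5:**
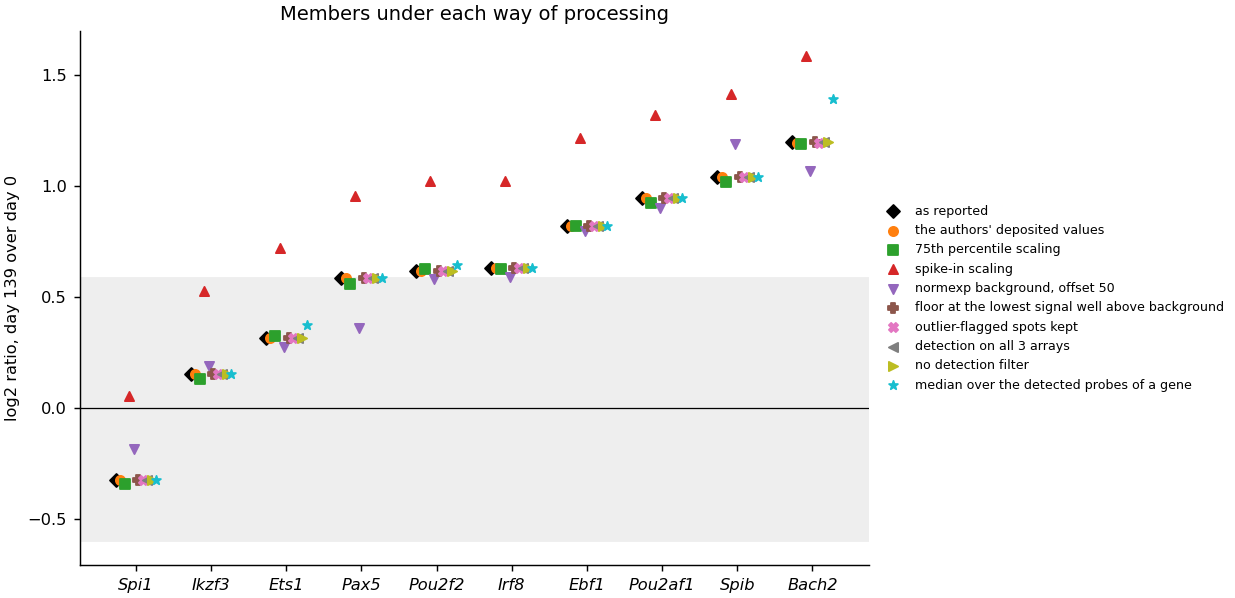
Log2 ratio of day 139 over day 0 for each member as reported and under 9 other processing settings (symbols), with a grey band between the ratio limits. Spib runs from 1.01 to 1.41, and Spi1 is the only member whose value crosses 0, at 0.05 with spike-in scaling.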

How the data were processed

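RNA from spleen was measured on 3 arrays, 1 per group, assigned by the sample labels. The deposited scanner files hold spot intensity values on a linear scale, from which the scanner software (Feature Extraction 10.7.1.1 in the file header, 9.5.1.1 in the submitters' processing notes) had subtracted the background. The authors also deposited a table of quantile-normalized intensity values, used as an alternative; its member probes differed from the values here by at most 0.00073 on the log2 scale. The RNA kit named in the labels is not the one in the paper.

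Control spots and outlier-flagged spots (119 to 152 per array) were removed. Repeated spots were combined by their mean, and the signals of 55679 probes were quantile normalized and put on a log2 scale with a floor of 1. Of these, 50.4% to 54.4% were well above background on an array, and 32108 on at least 1. A gene was read by its brightest probe well above background on at least 1 array. The Z-score is a probe's log2 ratio divided by the SD among the 1000 probes closest to it in average signal. Names were updated by RefSeq accession, symbol or synonym for 31380 probes, and 24299 kept the array's name.

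Named are all probes of the members and the 5 probes nearest to Spib among those that did not keep the array's name. Also named are the genes past the ratio limit in the lists of targets, ETS genes and B-lineage regulators, and the highest and lowest gene of each other list. The members and lists were chosen with earlier results of these data known. Alternatives were the deposited values, 75th percentile or spike-in scaling, normexp background subtraction (offset 50, limma 3.58.1, R 4.3.3), a floor set to each array's dimmest signal above background, outlier spots kept, detection on all 3 arrays, no detection filter, the median over a gene's probes, a ratio limit of 2 or 0.5, and other spreads for the Z-score. The calculations used Python 3.11.15, numpy 2.4.6, pandas 2.3.3 and scipy 1.17.1, and were tested on simulated data. No p-value was computed.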

Additional observations from a re-analysis of the deposited data

How the results depend on the processing

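Of 270 alternative values for single members, 247 moved by less than the scanner error and 23 by more, most of them with spike-in scaling. With spike-in scaling, the median log2 ratio of the members was 1.02 over day 0 and 1.15 over day 2, while the median of all probes shifted to 0.36 and 0.40, and 30.8% of probes were higher and 7.51% lower over day 0. The spike-in controls on day 139 had 65.6% of their day 0 signal, and the cause was not tested. With a ratio limit of 2 or 0.5, 2 members were higher over day 0 and 3 over day 2. With a scaled median absolute deviation in the Z-score, 5 members passed both limits over day 0 and 5 over day 2, and with 1 SD over all probes 0 did in either comparison. With normexp background correction 5 members were higher over day 0, Pou2f2 falling short at 0.58. The share of all probes past the limits is not given for these changed limits, Z-score spreads and normexp correction. The counts under them therefore describe the members only and are not set against all probes. None of the counts and medians of the members changed direction under these alternatives. No paired analysis was possible because each group has 1 array. No replicate could be left out for the same reason, and ratios of dim probes such as those of Pax5, Ikzf3 and Spi1 are the least precise.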

Other observations

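Regulators of the other blood lineages were read on the same arrays, beside 12.8% of all probes higher and 14.7% lower on day 139 over day 0. Of 12 T-lineage regulators, 4 were higher on day 139 over day 0 and 0 lower, at a median log2 ratio of 0.37, from Tcf7 at 0.16 to Ikzf2 at 1.59 (68.6, 84.9 and 207 on days 0, 2 and 139). Of 10 myeloid regulators, 0 were higher and 3 lower, at a median of -0.12 that turned to 0.26 with spike-in scaling, from Cebpb at -1.26 (4730, 3196 and 1979) to Gfi1 at 0.58. Of 9 erythroid regulators, 0 were higher and 6 lower, at a median of -0.86, or -0.46 with spike-in scaling. They ran from Klf1, the erythroid Kruppel-like factor, at -1.06 (1989, 1789 and 955) to Ldb1 at 0.24.

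Some genes of the lists had their lowest signal on day 2. Ciita, the master regulator of MHC class II genes, gave 194 on day 0, 63.9 on day 2 and 277.5 on day 139. Xbp1, the plasma cell regulator of secretory capacity, gave 24083, 12675 and 20686, and these genes were chosen after their values were seen. The neutrophil marker Mmp8 gave 3033, 140 and 135, so its low level was already present on day 2. Mmp8 was the lowest of its list, whose log2 ratios of day 139 over day 0 ran from -4.49 to 0.72 for Camp. Of 10 neutrophil markers, 1 was higher and 4 were lower by the ratio limits, against 12.8% and 14.7% of all probes. Their median log2 ratio was 0.07, and 6 of the 10 had a higher signal on day 139 than on day 0.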
